A study of Mus musculus with 9 samples.

Results

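The genes described here encode 8 secreted ligands of the transforming growth factor beta (TGF-beta) family, Tgfb1, Tgfb2, Tgfb3, Inhba, Inhbb, Bmp2, Bmp7 and Gdf15, and the activin-binding protein follistatin, Fst. They were taken by symbol from GENCODE M21, and all 9 had a row among the 29678 genes of the mouse kidney count tables and passed the filter on low counts. RNA sequencing libraries were made from poly(A)-selected kidney RNA in 3 groups, and the series' design text puts sampling at 24 h after reperfusion. Sham kidneys came from sham operations, bIRI kidneys from bilateral ischemia-reperfusion injury without pretreatment, and BHBNa_bIRI kidneys (called BHB plus bIRI here) from the same injury after pretreatment with beta-hydroxybutyrate sodium, the salt of a ketone body. Strain, age, sex, dose and the number of mice are not given in the labels, so p-values measure only the spread between libraries, which may be technical.

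Sham and BHB plus bIRI are represented by 3 libraries each, and bIRI by replicates 1 and 3, since the deposited counts of bIRI replicate 2 equalled the rounded-down mean of those libraries in all 29678 genes. Total counts of the 8 libraries ran from 33477985 to 45909063. Summed kidney markers were present throughout: the 6 proximal tubule markers came to 8364 to 9782 CPM (the count relative to the library total after TMM scaling) in sham, 1110 to 1146 CPM in bIRI and 1157 to 1348 CPM in BHB plus bIRI. The 6 markers of injured tubules came to 396 to 469 CPM in sham and at least 12610 CPM in every injured library. The bIRI libraries differed widely for most members (Tgfb1 was 41.6 CPM in replicate 1 and 13.2 CPM in replicate 3), so both of their values are given throughout. In kidney tissue such as this, fewer cells of a type and less RNA per cell cannot be told apart.

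Ligands of this family are made as long precursors and act as dimers that bring together type I and type II serine/threonine kinase receptors. TGF-beta and activin dimers signal through Smad2 and Smad3, bone morphogenetic proteins (BMPs) through Smad1, Smad5 and Smad9. TGF-beta is stored in the matrix in a latent form and is a main driver of matrix deposition in injured kidney. Inhba and Inhbb encode the subunits of activin A and activin B, follistatin binds and neutralises activins, Bmp7 is made in the developing and adult kidney and is needed for nephron formation, and Gdf15 is a distant member induced by cell stress that acts on the hindbrain receptor Gfral.

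Promoter sequence was at hand for 5 members, in the RefSeq promoter set on GRCm38.p6. For each, the window with the same start site as the GENCODE gene was taken, and the 250 bases before that start were searched on both strands. Those of Tgfb1 and Tgfb2 are shown because Tgfb1 passed the test in BHB plus bIRI and Tgfb2 did not (the difference between them was not tested), and those of Inhba and Inhbb because both activin subunits rose together. Capitals mark motif matches on either strand, and each window is written 5′ to 3′ on the strand of the gene, so that a match on the other strand appears as its reverse complement. The letters searched were GGGCGG for the GC box, then TATAAA for the TATA box, and CCAAT for the box of that name. The core of the cyclic AMP response element, contained in the full element, was searched as TGACG.
Tgfb1 (chr7:25686752-25687001, plus strand): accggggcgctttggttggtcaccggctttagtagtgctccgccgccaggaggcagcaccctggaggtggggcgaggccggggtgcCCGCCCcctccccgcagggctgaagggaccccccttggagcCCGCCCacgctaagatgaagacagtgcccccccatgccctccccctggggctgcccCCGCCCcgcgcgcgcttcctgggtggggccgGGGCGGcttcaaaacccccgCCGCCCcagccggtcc
Tgfb2 (chr1:186705990-186706239, minus strand): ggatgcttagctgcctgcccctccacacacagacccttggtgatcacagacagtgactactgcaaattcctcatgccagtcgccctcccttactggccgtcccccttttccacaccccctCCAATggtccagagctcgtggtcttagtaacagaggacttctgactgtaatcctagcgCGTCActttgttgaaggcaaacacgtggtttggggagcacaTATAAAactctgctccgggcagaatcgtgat
Inhba (chr13:16011601-16011850, plus strand): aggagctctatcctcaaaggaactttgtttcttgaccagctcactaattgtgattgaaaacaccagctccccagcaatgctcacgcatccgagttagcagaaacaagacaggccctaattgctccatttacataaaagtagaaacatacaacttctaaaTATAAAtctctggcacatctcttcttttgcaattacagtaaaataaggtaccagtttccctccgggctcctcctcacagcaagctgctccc
Inhbb (chr1:119422249-119422498, minus strand): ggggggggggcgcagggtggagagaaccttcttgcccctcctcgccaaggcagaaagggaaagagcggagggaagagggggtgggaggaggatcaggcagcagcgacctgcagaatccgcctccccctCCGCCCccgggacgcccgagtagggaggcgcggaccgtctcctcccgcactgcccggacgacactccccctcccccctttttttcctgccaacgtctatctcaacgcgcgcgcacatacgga
The Tgfb1 window held 5 GC boxes and no TATA box. The Tgfb2 window held a TATA box at 31 to 26 bases before the start, a CCAAT box and a cyclic AMP response element core. Inhba had a TATA box at 91 to 86 bases before its start, and Inhbb a single GC box at 122 to 117 bases. Of 32851 promoter windows of this length, 32.7% held a GC box, 12.4% a TATA box, 33.9% a CCAAT box and 17.8% the response element core. The other 5 motifs were in none of the 5 windows, which says only that these letters are not there. The AP-1 motif, TGANTCA, was in 6.75% of all windows. The full cyclic AMP response element, TGACGTCA, was in 1.55%. The C/EBP-ATF element, TGATGNAA, was in 3.45%. The NF-kappa-B motif, GGGANTTCC, was in 1.43%. The Smad palindrome, GTCTAGAC, was in 0.167%. The Gdf15 window held none of the 9 motifs.

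After injury, 5 of the 9 members rose and 1 fell. By edgeR, Inhba, Inhbb, Tgfb3, Gdf15 and Fst were higher in bIRI than in sham, Bmp7 was lower, and Tgfb1, Tgfb2 and Bmp2 did not pass the test. An adjusted p below 0.05, over 17967 genes, was the threshold, and 35.1% of all genes passed it in this comparison, 18.9% upward and 16.2% downward. The median log2 fold change of the members was 1.71, beside 0.08 over all genes tested. Values of the groups did not overlap for 6 of 9 members, upward for Tgfb2, Tgfb3, Inhba, Inhbb and Fst and downward for Bmp7, beside 55.9% of all genes (28.7% upward and 27.2% downward). In BHB plus bIRI against sham, 6 rose and 1 fell, beside 43.6% of all genes called (21.3% upward and 22.2% downward). The groups did not overlap for 7 members there, 6 upward and 1 downward, beside 64.8% of all genes (32.6% upward and 32.2% downward). Between BHB plus bIRI and bIRI, 0 of 9 passed, beside 13.5% of all genes (4.88% upward and 8.65% downward).

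**Figure D1:**
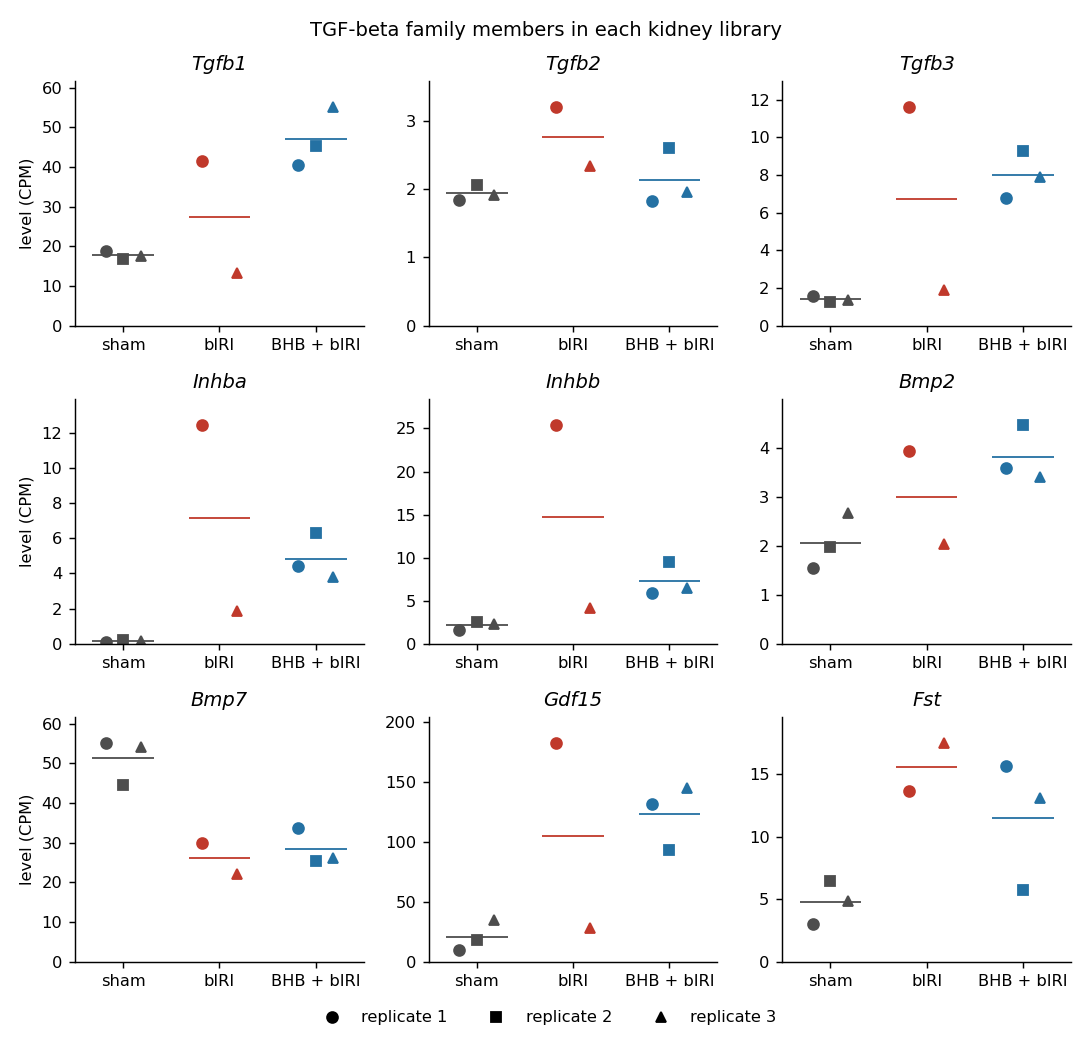
Level of each member in CPM, on a linear axis from 0, in each of the 8 libraries; the symbol gives the replicate number and the line the group mean. Inhba lay under 0.2 CPM in all sham libraries and at 1.85 to 12.5 CPM in all injured libraries, while Bmp7 lay highest in sham.

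Levels can be compared roughly between genes once divided by a gene length, here in CPM per kilobase of merged exons. Merged exons came to 5042 bases for Tgfb1 and 4589 for Fst, beside 2175 and 2833 in the longest coding transcript. For Inhba, Inhbb, Tgfb3 and Bmp2 these lengths were equal. Tgfb1 and Fst may therefore be understated in every order, share and ratio per kilobase given here, and overlaps with their neighbours depend on the length. The other length was not used. In sham, Bmp7 (12.8 CPM per kilobase) and Gdf15 (11.3) came first and their libraries overlapped. Tgfb1 followed at 3.52. Below it came Fst (1.04), Bmp2 (0.578), Inhbb (0.505) and Tgfb3 (0.411), each of which overlapped the next in this order, then Tgfb2 (0.334). Inhba was lowest, at 0.0228 CPM per kilobase. After injury with BHB the order was Gdf15 (66.6), Tgfb1 (9.31), Bmp7 (7.09), Fst (2.51), Tgfb3 (2.36), Inhbb (1.71), Bmp2 (1.07), Inhba (0.756) and Tgfb2 (0.367), with overlap between Tgfb1 and Bmp7, between Fst and Tgfb3, between Tgfb3 and Inhbb, and between Bmp2 and Inhba. In bIRI, Gdf15 (15.0 and 98.3 in replicates 3 and 1) stayed above all other members, and every neighbouring pair from Bmp7 down to Bmp2 overlapped.

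Inhba, the activin A subunit gene (ENSMUSG00000041324, GRCm38/mm10 chromosome 13, 16011851 to 16031621, plus strand), changed most. Its level was 0.0994, 0.183 and 0.155 CPM in sham replicates 1, 2 and 3, which were 4, 8 and 6 reads. It was 12.5 and 1.85 CPM in bIRI replicates 1 and 3, and 4.41, 6.29 and 3.80 CPM in BHB plus bIRI replicates 1, 2 and 3. Every injured library was above every sham library, bIRI replicate 3 the least. The rise was 48.0-fold in bIRI (95% confidence interval 14.8 to 155.5, edgeR adjusted p 0.000723) and 32.4-fold in BHB plus bIRI (log2 interval 3.40 to 6.64, adjusted p 0.000639), from a sham level of 0.146 ± 0.0424 CPM (SD, n = 3). On the log2 scale the rise in bIRI was 5.58, but 3.57 with replicate 3 as the lone bIRI library and 6.38 with replicate 1 alone.

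Inhbb, the activin B subunit gene (ENSMUSG00000037035, chromosome 1, 119415465 to 119422248, minus strand), was the more abundant subunit in sham, at 1.64, 2.51 and 2.30 CPM. It was 25.4 and 4.10 CPM in bIRI replicates 1 and 3, and 5.87, 9.50 and 6.47 CPM in BHB plus bIRI. All injured libraries exceeded all sham libraries, but bIRI replicate 1 stood far above the rest. The log2 fold change was 2.77 in bIRI (SE 0.60, edgeR adjusted p 0.00707) and 1.76 in BHB plus bIRI (SE 0.55, adjusted p 0.0285). With replicate 3 as the lone bIRI library, where its spread is taken from the other groups, the rise was 0.86 and did not pass (adjusted p 0.0615). The call in BHB plus bIRI was lost without any 1 of the sham libraries or BHB replicate 2 or 3 (adjusted p 0.0598 to 0.102). Per kilobase, Inhbb exceeded Inhba 20.7 to 24.8 times in sham, 3.06 and 3.32 times in bIRI replicates 1 and 3, and 2.002 to 2.55 times in BHB plus bIRI, so the ratio was lower in each injured library than in sham.

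Fst, encoding follistatin (ENSMUSG00000021765, chromosome 13, 114452290 to 114458951, minus strand), was 3.03, 6.44 and 4.83 CPM in sham. It was 13.7 and 17.5 CPM in bIRI replicates 1 and 3, and 15.6, 5.73 and 13.1 CPM in BHB plus bIRI. It was the member called higher in bIRI that was lower in bIRI replicate 1 than in replicate 3. BHB plus bIRI replicate 2 lay within the sham range, so those groups overlapped. The log2 fold change was 1.71 in bIRI (SE 0.42, edgeR adjusted p 0.0125) and 1.27 in BHB plus bIRI (SE 0.39, adjusted p 0.0251). Without bIRI replicate 3 the rise in bIRI was 1.52 (adjusted p 0.0514), and in BHB plus bIRI the call was lost without sham replicate 1 or 3 or BHB replicate 1 or 3 (adjusted p 0.0692 to 0.1003).

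The balance of activin subunit over follistatin transcript was taken within each library, per kilobase. Inhba was 0.0236, 0.0204 and 0.0230 of Fst in sham, 0.654 and 0.0761 of Fst in bIRI replicates 1 and 3, and 0.202, 0.788 and 0.208 in BHB plus bIRI. The injured libraries lay above sham in all 5 cases. With Inhbb added, the ratio was 0.441 to 0.607 in sham. The highest ratios were 2.65, of bIRI replicate 1, and 2.58, of BHB plus bIRI replicate 2, but it was 0.329 in bIRI replicate 3 and 0.607 and 0.740 in BHB plus bIRI replicates 1 and 3, so that the summed subunits overlapped sham. These ratios are descriptions and were not tested. Their size depends on the length used for Fst, 4589 bases of merged exons beside 2833 in its longest coding transcript.

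Of the TGF-beta isoforms, Tgfb3 rose in both injured groups and Tgfb1 in BHB plus bIRI. Tgfb1, the main isoform of adult tissue (ENSMUSG00000002603, chromosome 7, 25687002 to 25705077, plus strand), was 18.9, 16.7 and 17.6 CPM in sham. In bIRI replicate 1 it was 41.6 CPM and in replicate 3 it was 13.2 CPM, on either side of sham. In BHB plus bIRI it was 40.5, 45.3 and 55.1 CPM, above all sham libraries. The log2 fold change was 0.63 in bIRI (SE 0.38, edgeR adjusted p 0.223) and 1.40 in BHB plus bIRI (SE 0.35, adjusted p 0.00976). With replicate 1 as the lone bIRI library the first value was 1.23 (adjusted p 0.000427), and with replicate 3 alone it was -0.50 (adjusted p 0.0695).

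Tgfb3, known for its part in scarless repair and palate closure (ENSMUSG00000021253, chromosome 12, 86056745 to 86079041, minus strand), was 1.57, 1.23 and 1.37 CPM in sham. It was 11.6 and 1.88 CPM in bIRI replicates 1 and 3, and 6.78, 9.26 and 7.88 CPM in BHB plus bIRI. All injured libraries were above sham, bIRI replicate 3 only slightly. The log2 fold change was 2.28 in bIRI (SE 0.58, edgeR adjusted p 0.0147), or 0.36 (adjusted p 0.369) with bIRI replicate 3 alone, and the call was also lost without sham replicate 2 or 3 (adjusted p 0.0530 and 0.0511). With BHB it was 2.52 (SE 0.55, adjusted p 0.00545). Ttll5, a tubulin polyglutamylase gene on the other strand, overlaps Tgfb3, and whether reads were counted by strand is not given in the sources used here, so their reads may not be separate. Ttll5 was 11.4 to 15.4 CPM in sham, 5.91 and 11.1 CPM in bIRI replicates 1 and 3 and 7.16 to 8.12 CPM in BHB plus bIRI. The part of Ttll5 reads in the Tgfb3 result was not tested.

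Tgfb2, which acts in heart and eye development (ENSMUSG00000039239, chromosome 1, 186622792 to 186705989, minus strand), was 1.84, 2.06 and 1.91 CPM in sham, 3.20 and 2.33 CPM in bIRI replicates 1 and 3, and 1.82, 2.61 and 1.96 CPM in BHB plus bIRI. Both bIRI libraries were above sham, while BHB plus bIRI overlapped it. By edgeR neither difference passed: it was 0.51 on the log2 scale in bIRI (SE 0.32, adjusted p 0.246) and 0.14 in BHB plus bIRI (SE 0.29, adjusted p 0.732). Among the 3 isoforms, per kilobase, Tgfb1 made up 82.2% to 82.8% in sham, 67.5% and 73.2% in bIRI replicates 1 and 3, and 73.8% to 80.4% in BHB plus bIRI. The share of Tgfb3 was 9.03% to 10.2% in sham and at least 15.5% in each injured library. Tgfb2 held 7.02% to 8.80% in sham, 4.51% and 11.3% in bIRI replicates 1 and 3, and 2.49% to 3.70% in BHB plus bIRI. These shares use merged exons, by which Tgfb1 may be understated.

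**Figure D2:**
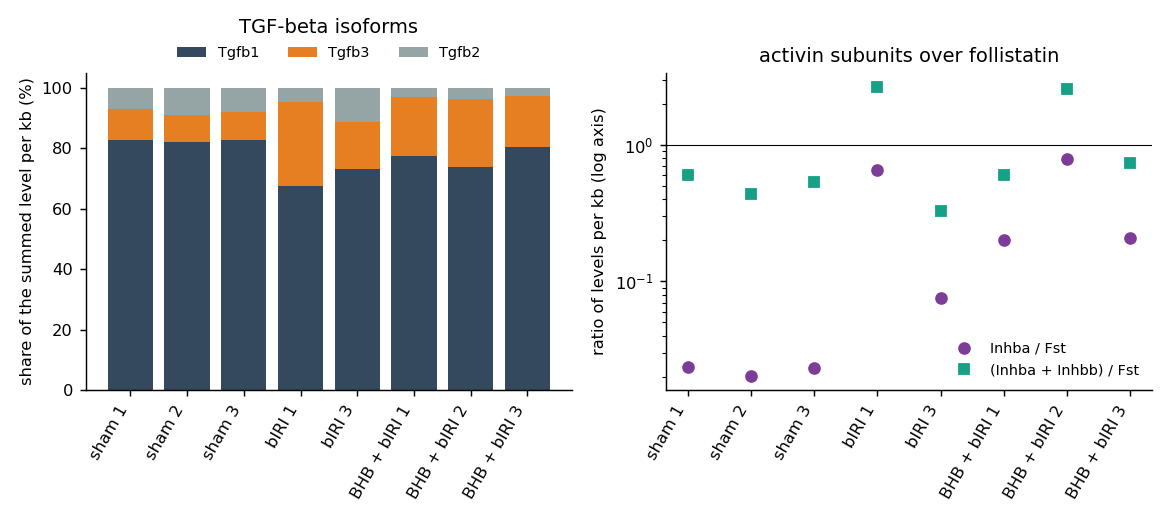
Left, the share of each TGF-beta isoform in the summed level per kilobase in each library; right, on a log axis, the ratio of Inhba, and of Inhba plus Inhbb, to Fst. Tgfb3 held 9.03% to 10.2% in sham and more in every injured library, and Inhba over Fst was lowest in the 3 sham libraries.

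Bmp7, which counteracts TGF-beta signalling in the kidney (ENSMUSG00000008999, chromosome 2, 172868012 to 172940321, minus strand), was the member that fell. It was 55.1, 44.6 and 54.1 CPM in sham, 30.1 and 22.03 CPM in bIRI replicates 1 and 3, and 33.8, 25.5 and 26.2 CPM in BHB plus bIRI. All injured libraries were below all sham libraries. The mean was 51.3 ± 5.81 CPM in sham and 28.5 ± 4.62 CPM in BHB plus bIRI (SD, n = 3 each). The log2 fold change was -0.98 in bIRI (SE 0.21, edgeR adjusted p 0.00717) and -0.85 in BHB plus bIRI (SE 0.19, adjusted p 0.0056). Bmp7 was 3.35 to 3.85 times Tgfb1 per kilobase of merged exons in sham. It was 0.906 and 2.09 times in bIRI replicates 1 and 3, and 0.596 to 1.05 times in BHB plus bIRI. The size of this ratio depends on the length used, 5042 bases for Tgfb1 beside 2175 in its longest coding transcript. By the latter length it would be lower in every library.

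Bmp7 is made in podocytes and the distal nephron, so marker levels of these cells are given beside it. The 5 podocyte markers summed to 467 to 613 CPM in sham, 718 and 350 CPM in bIRI replicates 1 and 3 and 406 to 579 CPM in BHB plus bIRI, and 1 of 5 fell in bIRI and 0 of 5 in BHB plus bIRI. The 5 thick ascending limb markers summed to 2177 to 3722 CPM in sham, 1544 and 4406 CPM in bIRI replicates 1 and 3, and 316 to 907 CPM in BHB plus bIRI, where 4 of 5 fell. The 4 markers of the distal convoluted tubule summed to 481 to 782 CPM in sham, 246 and 614 CPM in bIRI replicates 1 and 3, and 124 to 143 CPM in BHB plus bIRI, where all 4 fell. The 6 collecting duct markers summed to 551 to 666, 427 to 960 (lower in replicate 1) and 635 to 706 CPM in the 3 groups, and of the 5 tested 3 fell and 1 rose in BHB plus bIRI. In bIRI against sham, 1 of 5 thick ascending limb markers and 1 of 4 distal convoluted tubule markers fell. Of the 5 collecting duct markers tested, 0 fell and 1 rose in bIRI. No marker in these lists was at 0 in a whole group. The part of these cells in the Bmp7 result was not tested.

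Bmp2, an osteogenic BMP that is also made by endothelium (ENSMUSG00000027358, chromosome 2, 133552159 to 133562885, plus strand), was 1.54, 1.96 and 2.66 CPM in sham, 3.94 and 2.03 CPM in bIRI replicates 1 and 3, and 3.59, 4.46 and 3.40 CPM in BHB plus bIRI. BHB plus bIRI lay above all sham libraries, but the difference of 0.89 on the log2 scale (SE 0.34) missed the threshold (edgeR adjusted p 0.0588). DESeq2 gave 0.89 with an adjusted p of 0.0341, and edgeR with upper-quartile factors gave 0.99 with an adjusted p of 0.0401. Of the 18 alternative settings, 8 called this difference and 10 did not. In bIRI the log2 fold change was 0.54 (SE 0.38, edgeR adjusted p 0.296). Bmp7 exceeded Bmp2 17.99 to 31.6 times per kilobase in sham and 5.06 to 9.61 times in the injured libraries.

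Gdf15, a cytokine gene that responds to stress and to p53 (ENSMUSG00000038508, chromosome 8, 70629393 to 70632456, minus strand), varied most among sham libraries, at 9.64, 18.2 and 35.1 CPM. It was 182 and 27.7 CPM in bIRI replicates 1 and 3, and 132, 93.3 and 145 CPM in BHB plus bIRI. BHB plus bIRI lay above all sham libraries, whereas bIRI replicate 3 lay within the sham range. The log2 fold change was 2.32 in bIRI (SE 0.68, edgeR adjusted p 0.0262), or 0.34 (adjusted p 0.706) with bIRI replicate 3 alone. Without sham replicate 1 or 2 it was 1.98 and 2.22 and did not pass (adjusted p 0.0824 and 0.0797). The value for BHB plus bIRI was 2.56 (SE 0.65, adjusted p 0.0111). It did not pass without a filter on low counts (adjusted p 0.0942), and without sham replicate 3 it was 3.15. Per kilobase, Gdf15 made up 21.5%, 37.6% and 49.9% of the 8 ligands in sham replicates 1, 2 and 3, and 57.9% to 77.4% in the injured libraries.

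**Figure D3:**
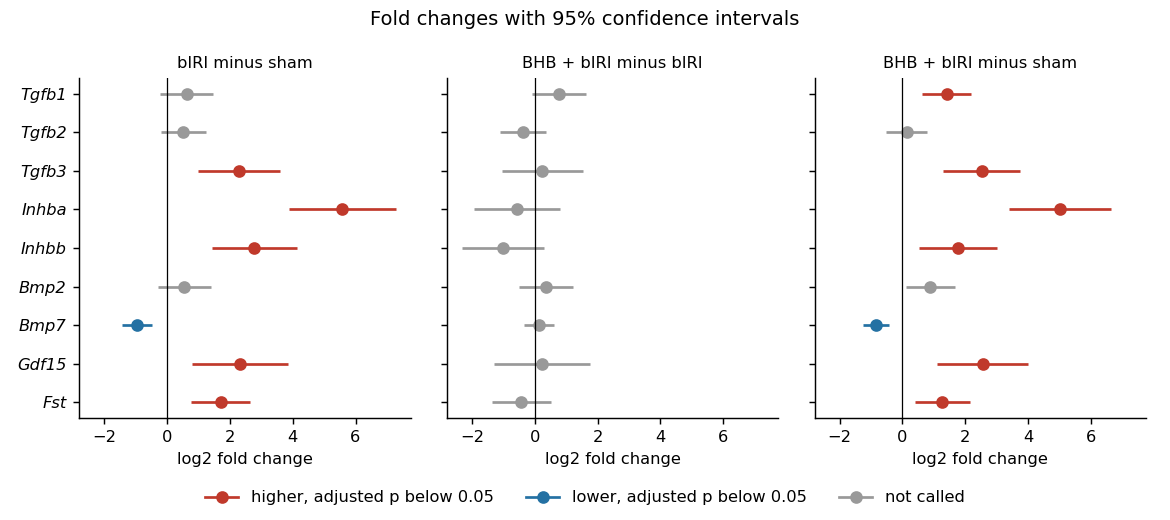
Log2 fold change of each member with its 95% confidence interval by edgeR in the 3 comparisons; red and blue mark members called higher and lower, and grey those not called. The intervals of all 9 members include 0 in the middle panel, BHB plus bIRI minus bIRI.

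No member was called between BHB plus bIRI and bIRI. EdgeR gave 0 calls at an adjusted p of 0.05 and 0 at an unadjusted p under 0.05, and DESeq2 also gave 0 higher and 0 lower. The groups overlapped for all 9 members, beside 46.0% of all genes whose groups did not. Tgfb1 had the smallest p, with a log2 difference of 0.78 (95% confidence interval -0.09 to 1.65, adjusted p 0.185), followed by Inhbb with -1.02 (-2.32 to 0.29, adjusted p 0.243). The interval was widest for Gdf15, at 0.23 (-1.30 to 1.77), and narrowest for Bmp7, at 0.13 (-0.33 to 0.60). Inhba was at -0.56 (-1.94 to 0.81), Tgfb3 at 0.24 (-1.04 to 1.53), Fst at -0.44 (-1.38 to 0.50), Bmp2 at 0.35 (-0.50 to 1.21) and Tgfb2 at -0.38 (-1.10 to 0.35). These intervals leave room for differences in either direction and do not show that the groups were alike.

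The sign of this difference depended on the bIRI library for 6 members. Against replicate 3 alone, Inhba, Tgfb1 and Tgfb3 were called higher with BHB, by 1.44, 1.88 and 2.14 on the log2 scale (edgeR adjusted p 0.0191, 0.000151 and 0.000695). Against replicate 1 alone, Inhba and Inhbb were called lower, by -1.37 and -1.80 (adjusted p 0.0402 and 0.0164). Inhba thus passed in opposite directions. Tgfb3, Inhbb, Bmp2, Bmp7 and Gdf15 also changed sign between the references, at -0.54 and 2.14, -1.80 and 0.89, -0.049 and 0.97, -0.081 and 0.43, and -0.57 and 2.21. In both of these fits 1 group is a single library, whose spread is assumed to be that of the other groups.

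**Figure D4:**
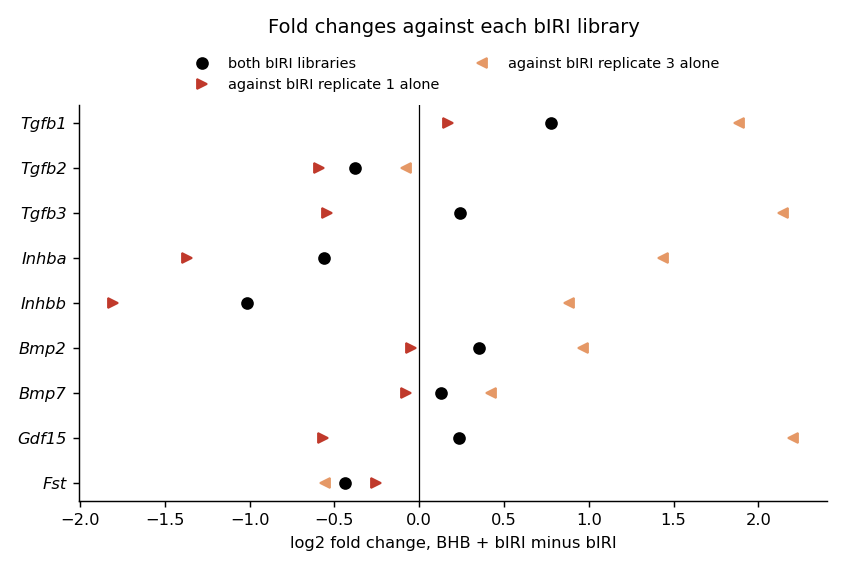
Log2 fold change of BHB plus bIRI minus bIRI for each member with both bIRI libraries (circles) and against bIRI replicate 1 or 3 alone (triangles). The circles lie between -1.02 and 0.78, and the triangles fall on opposite sides of 0 for Tgfb3, Inhba, Inhbb, Bmp2, Bmp7 and Gdf15.

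Markers of other cells that make these ligands are given by group, and not all of them differed. The 7 macrophage and monocyte markers summed to 84.5 to 131 CPM in sham, 88.8 and 96.9 CPM in bIRI and 144 to 167 CPM in BHB plus bIRI. Against sham, 4 rose and 1 fell in BHB plus bIRI. In bIRI 2 rose and 1 fell, and the sums lay within the sham range. The 6 neutrophil markers summed to 1.26 to 2.07, 4.69 to 11.7 and 38.8 to 67.3 CPM. Ly6g was at 0 in sham and bIRI. Of the 5 tested, 3 rose in bIRI and 5 in BHB plus bIRI against sham. Between BHB plus bIRI and bIRI, 4 of 5 were called higher and 0 lower, beside 4.88% and 8.65% of all genes. With a replicate block, 0 of all genes were called higher in that comparison. The 7 fibroblast and pericyte markers summed to 166 to 188, 245 to 420 and 333 to 455 CPM, with 3 of 7 higher in bIRI and 4 of 7 in BHB plus bIRI. This list holds Col1a1 and Col1a2, which are also counted below as TGF-beta targets. Their means were 16.1 and 50.5 CPM in sham and 114 and 124 CPM in BHB plus bIRI. Dcn, of the same list, had means of 26.5 and 13.8 CPM in these groups and was not called. The 6 endothelial markers summed to 517 to 564, 428 to 662 and 387 to 677 CPM, which overlapped. Of these, 0 were called in bIRI, and 1 rose and 1 fell in BHB plus bIRI against sham. The part of these cells in the levels of Tgfb1, Tgfb3 and the activin subunits was not tested.

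The rest of the pathway was read from lists of receptors, activators, antagonists, Smad proteins and targets. Like the members, these lists were chosen with earlier results of these data known. Their counts beside the shares of all genes are therefore descriptions and not a test of the lists. Each count stands beside the share of all genes called, 18.9% higher and 16.2% lower in bIRI. For BHB plus bIRI against sham these shares were 21.3% and 22.2%. Between BHB plus bIRI and bIRI they were 4.88% and 8.65%. Of 12 other ligands tested, 2 rose in bIRI, Bmp3 and Bmp8b, a share near that of all genes, and 0 fell. Bmp3, a BMP that antagonises its relatives, was 0.696, 1.28 and 1.60 CPM in sham, 7.33 and 23.3 CPM in bIRI replicates 1 and 3, and 8.72 to 13.5 CPM in BHB plus bIRI, above sham in every library (12.8-fold in bIRI, edgeR adjusted p 0.000708; 9.18-fold in BHB plus bIRI, adjusted p 0.00069). Without bIRI replicate 3 the log2 fold change of Bmp3 in bIRI was 2.62, in place of 3.68. Bmp8b was under 1 CPM in every library. In sham it was 0, 0.0457 and 0.103 CPM, near the level of 3 counts (0.0646 to 0.0815 CPM). Without sham replicate 3 its log2 fold changes were 4.12 in bIRI and 4.53 in BHB plus bIRI, in place of 3.15 and 3.56. Without sham replicate 2 its call in bIRI was lost (adjusted p 0.0603). In BHB plus bIRI against sham Bmp3 and Bmp8b rose, and Bmp8a and Gdf11 fell. Neither fall was called without BHB replicate 1 or 2 (edgeR adjusted p 0.0529 to 0.0736). Bmp8a was 0 to 0.117 CPM in BHB plus bIRI, also near the level of 3 counts.

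Of 16 receptors and co-receptors tested, 5 rose and 0 fell in bIRI, with a median log2 fold change of 0.29. Tgfbr1, the type I receptor of TGF-beta, was 29.0, 33.4 and 44.6 CPM in sham, 150 and 69.0 CPM in bIRI and 95.6, 87.4 and 100.8 CPM in BHB plus bIRI, and rose in both (log2 fold changes 1.62 and 1.41, edgeR adjusted p 0.00348 and 0.00341; the first was 0.88 without bIRI replicate 1). Tgfbr2, its type II partner, was at 0.25 and 0.43 and did not pass (adjusted p 0.324 and 0.0597). Of the BMP receptors, Bmpr1b rose by 1.91 (1.17 without bIRI replicate 3), Bmpr2 by 1.26 and Bmpr1a by 0.65 in bIRI, but Bmpr2 and Bmpr1a were no longer called with offsets for length and GC content (adjusted p 0.125 and 0.587). Acvr2a, a type II receptor of activins, rose by 1.45 in bIRI. It was called lower with BHB than in bIRI, at 4.03, 6.22 and 3.48 CPM against 15.6 and 23.1 CPM (log2 -2.07, adjusted p 0.0275), and sham was at 6.77 to 7.48 CPM. With length and GC trends removed this was -1.36 with an adjusted p of 0.0515, and 0 receptors were called lower there without sham replicate 1 or 2 or BHB replicate 1 or 3, beside 6 without bIRI replicate 1. Acvr1b, the type I receptor of activins, fell in BHB plus bIRI against sham by 1.15 on the log2 scale (adjusted p 0.00213), while Acvr2b was at -0.14 (adjusted p 0.7).

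Among 18 genes of latent TGF-beta storage and activation, 7 rose and 4 fell in bIRI, and 9 rose and 2 fell in BHB plus bIRI against sham. Lrrc32, which tethers latent TGF-beta to cell surfaces, rose by 2.01 in bIRI (edgeR adjusted p 0.0139), Thbs1, the matrix protein thrombospondin 1 that activates latent TGF-beta, by 1.81 (adjusted p 0.00542; 0.74 without bIRI replicate 1 and 2.39 without replicate 3), Plat, the tissue plasminogen activator, by 1.41, and Fbn1, the fibrillin to which latent complexes bind, by 1.28. The rise of Plat was not called without sham replicate 1 or 2 or bIRI replicate 1 (adjusted p 0.0676 to 0.15). The number that rose in bIRI was 3 without bIRI replicate 1 and 4 without sham replicate 1 or 3. Lrrc32 was 143 CPM in bIRI replicate 1 and 30.4 CPM in replicate 3, beside 19.1 to 26.1 CPM in sham, and with replicate 3 alone its rise was 0.43 (adjusted p 0.234), and without sham replicate 1 or 3 its adjusted p was 0.0535 and 0.0532. Furin, the protease that cleaves the precursors of the family, fell from 232 to 304 CPM in sham to 154 and 142 CPM in bIRI and 97.1 to 136 CPM in BHB plus bIRI.

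Antagonists other than follistatin rose in 7 of 17 in bIRI, with 0 falling. Nbl1, a BMP antagonist of the DAN family, rose by 1.58 on the log2 scale (0.76 without bIRI replicate 1) and Grem1, another of that family, by 3.66, though Grem1 was under 0.1 CPM in sham and its call was lost without bIRI replicate 3 (adjusted p 0.164). The number that rose was 4 without sham replicate 1 or 3. Fstl3, a close relative of follistatin that also binds activins, was 1.55 to 2.63 CPM in sham, 4.14 and 5.15 CPM in bIRI and 1.85 to 2.12 CPM in BHB plus bIRI (log2 1.07, adjusted p 0.028, for bIRI against sham, but 0.0562 to 0.0839 without bIRI replicate 3 or any 1 sham library). Between BHB plus bIRI and bIRI, 6 of 17 antagonists were called lower and 0 higher, beside 8.65% and 4.88% of all genes. Among those lower were Fstl3, Chrdl1, Grem1, Twsg1 and Crim1. With length and GC trends removed 0 antagonists were called lower, and over all genes the number of calls in this comparison went from 2431 to 2. It was 0 antagonists without sham replicate 1 or 2 or BHB replicate 1 or 3, 2 without bIRI replicate 3 or BHB replicate 2, and 3 without sham replicate 3.

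Of 15 Smad proteins and regulators, 3 rose and 1 fell in bIRI, and 3 rose and 5 fell in BHB plus bIRI against sham; beside the 18.9% of all genes higher in bIRI, the share that rose there was near the background. Tgif1, a Smad corepressor, rose 2.29-fold (edgeR adjusted p 0.00106). On the log2 scale, Skil, another corepressor and a TGF-beta target, rose by 1.11 and Pmepa1, an inhibitor of TGF-beta signalling that it induces, by 1.56. Smad9, a BMP-responsive Smad, fell by 1.83. The pathway lists share genes, so their counts are not independent. Among the shared genes, Tgif1, Skil and Pmepa1 are also listed as TGF-beta and activin targets, and Smad9 as a BMP target. Grem1 is listed as an antagonist and a BMP target, and Cdkn1a as a TGF-beta target and a stress gene. Skil was 0.52 (adjusted p 0.0694) with length and GC trends removed, and Pmepa1 0.45 (adjusted p 0.0657) with bIRI replicate 3 alone. Without bIRI replicate 1, 3 genes of the list fell, and without bIRI replicate 3, 5 rose. Smad7, the inhibitory Smad, was at 0.06 in bIRI (adjusted p 0.816) and fell by 0.58 in BHB plus bIRI against sham (adjusted p 0.0208), a call lost without any 1 sham library or BHB replicate 2 or 3 (adjusted p 0.0509 to 0.0708).

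Of 20 target genes of TGF-beta and activin, 12 rose and 0 fell in bIRI, and 14 rose and 1 fell in BHB plus bIRI against sham, with median log2 fold changes of 1.28 and 1.86. The fibrillar collagen genes Col1a1 and Col3a1 rose by 2.09 and 2.29 in bIRI. Cdkn1a, a cell cycle inhibitor gene that TGF-beta and p53 both induce, was 171.9 and 31.97 CPM in bIRI replicates 1 and 3 beside 4.96 to 5.11 CPM in sham and rose by 4.33, or by 2.59 without bIRI replicate 1 and 5.09 without replicate 3. Cdkn2b, another such inhibitor, rose by 2.35 (1.74 without bIRI replicate 3). Of 14 BMP target genes 1 rose and 2 fell in bIRI, with a median of -0.18, and 2 rose and 4 fell in BHB plus bIRI, with a median of 0.03. The number that fell in bIRI was 6 without bIRI replicate 1 and 1 without any 1 sham library. Id1, the classical BMP target, was 37.4, 60.2 and 93.0 CPM in sham, 72.6 and 24.6 CPM in bIRI and 80.4, 86.6 and 81.7 CPM in BHB plus bIRI, and did not pass in either (adjusted p 0.535 and 0.457). Id4 fell by 0.90 in bIRI (not called without bIRI replicate 1 or any 1 sham library, adjusted p 0.0501 to 0.0955) and by 1.64 in BHB plus bIRI.

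**Figure D5:**
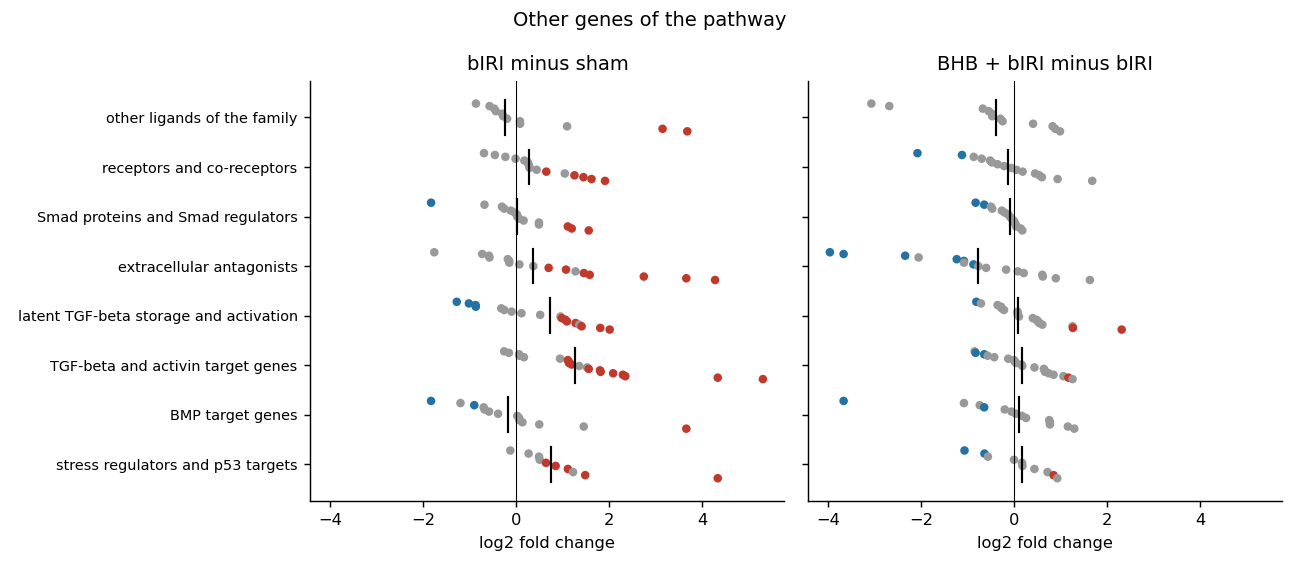
Log2 fold change of each tested gene of the 8 pathway lists in bIRI minus sham (left) and BHB plus bIRI minus bIRI (right); red and blue mark genes called higher and lower, grey those not called, and the bar the list's median. In bIRI minus sham the TGF-beta and activin targets have the highest median, 1.28, and the BMP targets lie at -0.18.

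Of 10 stress genes, regulators known to induce Gdf15 together with the stress and p53 targets Trib3, Chac1, Cdkn1a and Mdm2, 5 rose in bIRI (3 without sham replicate 2) and 6 in BHB plus bIRI against sham. Cdkn1a had the largest change, as given above, and Hif1a, the hypoxia-inducible factor, rose by 1.49 in bIRI. Between BHB plus bIRI and bIRI, 1 gene of the list was called higher and 2 lower, beside 4.88% and 8.65% of all genes. Hif1a was among those lower. Its log2 fold change there was -1.37 to -0.49 over the 18 alternatives, and its call was lost in 9 of them. Atf4, the transcription factor of the integrated stress response, was 78.1 to 95.7 CPM in sham, 240 and 132 CPM in bIRI and 192 to 224 CPM in BHB plus bIRI (log2 fold changes 1.11 and 1.30, edgeR adjusted p 0.00763 and 0.00176). Ddit3, its partner CHOP, rose by 0.85 and 1.29, the first not called without sham replicate 1 or 2 (adjusted p 0.0557 and 0.0519). Trp53, which encodes p53, was at 0.27 in bIRI (adjusted p 0.365) and rose 2.17-fold in BHB plus bIRI against sham (adjusted p 0.00184). Between BHB plus bIRI and bIRI it was called higher (0.85, adjusted p 0.0393), but 0 genes of the list were called higher there with offsets for length and GC content or without any 1 library other than bIRI replicate 1.

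Genes with the most similar pattern were found by Pearson's correlation of log2 CPM over the 8 libraries, a description over points that share groups and the spread of bIRI. For Inhba these were Slc35g2, Actn1 and Nebl (r 0.996, 0.995 and 0.995), and for Inhbb Frmd6, Tex10 and Lox (0.997, 0.991 and 0.991). Tgfb1 was nearest to Hgh1, Cdkn2aipnl and Impdh1 (0.996, 0.993 and 0.99), Tgfb3 to Lrrc59, Rras2 and Plin2 (0.992, 0.992 and 0.99), and Gdf15 to AA414768, Plk3 and Foxs1 (0.998, 0.992 and 0.99). Bmp7 was nearest to Nsmce4a, Got2 and Mmachc (0.986, 0.983 and 0.983), which like it were highest in sham. Lower values were found for Tgfb2 (Zbtb46, 0.955), Bmp2 (H3f3b, 0.984) and Fst (Slfn5, 0.943). Among the members, r was highest between Bmp2 and Gdf15, at 0.94. It was 0.93 between Inhba and Inhbb, between Inhba and Tgfb3 and between Tgfb1 and Tgfb3, and -0.82 between Inhba and Bmp7.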

How the data were processed

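Raw read counts per gene were deposited by the authors, 1 table for each of 9 kidney libraries. The tools named in the submitters' processing notes are HISAT2, featureCounts, Subread and DESeq2, with mm10 as the genome build; their roles are not stated there. Versions, annotation and strand setting are not given in the sources used here. Symbols and positions came from GENCODE M21 (GRCm38), which named 29220 of 29678 gene identifiers. The members and gene lists were chosen with earlier results of these data known.

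The design left out bIRI replicate 2. The 8 other libraries were fitted in edgeR 4.0.16 (R 4.3.3): filterByExpr, TMM factors, a robust quasi-likelihood model with 1 mean per group and 5 residual degrees of freedom, two-sided tests, and Benjamini-Hochberg adjustment over 17967 genes within each comparison. The fit was tested on simulated data that had the same spread for every gene and group. That test does not cover the wide difference between the bIRI libraries. Standard errors were the log2 fold change divided by the square root of F. A floor of 3 counts was 0.0646 to 0.0815 CPM (counts over the TMM-scaled library total), covering counting error only. Genes were named by a rule: the members, up to 4 called genes per list, a few fixed pathway genes, and the 3 most alike genes of each member, among genes with a mean of at least 1 CPM and without predicted gene models. Ttll5, Furin and some antagonists called between the injured groups fall outside it and were chosen once their values were known. Alternatives were DESeq2 1.42.0, other scaling factors and filters, only the compared groups, a replicate block, all 9 tables, offsets for transcript length and GC content (natural splines with 5 degrees of freedom), and leaving out each library. Running them on the pathway lists was decided after seeing the data. Values of some listed genes are not reported here.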

Additional observations from a re-analysis of the deposited data

How the results depend on the processing

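The calls of Inhba and Bmp7 against sham held in both injured groups under all 18 alternatives, as did those of Tgfb1 and Tgfb3 in BHB plus bIRI. In bIRI against sham, 5 members were higher, but 3 without a filter on low counts, 3 in a fit of only the compared groups and 2 with a replicate block; without 1 library the number ran from 2 (without bIRI replicate 1) to 5, and 1 was lower throughout. In BHB plus bIRI against sham, 6 were higher and, without 1 library, 4 to 7; without the filter the calls of Gdf15 (adjusted p 0.0942) and Inhbb (0.149) were lost, and with the replicate block that of Fst (0.0675). In BHB plus bIRI against bIRI, 0 were higher and 0 lower, but without 1 library 0 to 3 were higher and 0 to 2 lower. In that comparison offsets for length and GC content turned Tgfb2 to 0.039 and Gdf15 to -0.38 on the log2 scale. Leaving out single libraries gave ranges that crossed 0: Tgfb1 -0.50 to 1.23 and Bmp2 -0.087 to 0.94 in bIRI against sham, Tgfb2 -0.034 to 0.24 in BHB plus bIRI against sham, and, in BHB plus bIRI against bIRI, Tgfb3 -0.54 to 2.14, Inhba -1.37 to 1.44, Inhbb -1.80 to 0.89, Bmp2 -0.049 to 0.97, Bmp7 -0.081 to 0.43 and Gdf15 -0.57 to 2.21. The cause was not tested. Replicate numbers were not shown to pair the libraries, with correlations of -0.206 to 0.0925 between deviations of same-numbered libraries, and the replicate block left 2 of 5 calls in bIRI (Inhba and Inhbb) and 0 of 2431 between the injured groups over all genes. Inhba rested on 4 to 8 reads per sham library, so its fold change is imprecise.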
